A study of Mus musculus with 12 samples.

Results

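The static libraries compared here were the 3 libraries of DKO cells and the 3 libraries of control cells kept without shear stress, 6 of the 12 libraries of the series, chosen by their sample titles. All were made from Ocy454 cells, a mouse osteocyte line isolated from the long bones of animals carrying the SV40 large T antigen and a green fluorescent protein driven by a Dmp1 promoter, of which the study used a single-cell sub-clone. Control cells are labelled as original cells. The study's methods describe control cells with Cas9 and a guide vector without a guide, but do not say in which experiments these were used. DKO cells are labelled as deleted for HDAC4 and HDAC5, which was done with Cas9 and lentiviral guides. Both lines were grown to confluence, moved to the temperature that inactivates the T antigen for at least 14 days, and sampled at the 3 h time point of the static arm. The other 6 libraries, the same lines after 3 h of fluid flow shear stress (FFSS), were fitted separately and serve only as further libraries of these lines. A single control line was compared with a single DKO line, and whether the DKO line was grown from 1 cell is not given in the sources used here, so the deletion and the history of each line cannot be told apart. Neither is it stated that replicates were separate cultures, so the p-values measure the spread between these libraries, which may be technical.

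Osteocytes are the former osteoblasts that sit within mineralised bone, where they sense load and secrete factors that act on osteoblasts and osteoclasts. The products of Hdac4 and Hdac5 belong to class IIa of the histone deacetylases, which have little catalytic activity of their own and repress transcription in the nucleus by binding factors of the MEF2 and RUNX families. The best known target in osteocytes is Sost, which encodes sclerostin, a secreted inhibitor of WNT signalling that bone cells make mainly once they are embedded in matrix.

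Each static library held between 18.9 and 19.2 M reads assigned to genes, at which 3 reads correspond to between 0.152 and 0.155 CPM in control and between 0.161 and 0.163 CPM in DKO libraries (counts of a gene per 1 M assigned reads, with totals scaled by TMM), the smallest level that can be told from 0 as far as counting error goes. Libraries of a line resembled each other, with a biological coefficient of variation of 0.0328 in control and 0.0449 in DKO cells, and the first principal component held 92.5% of the variance and separated the lines. The lines also differed in library composition. Reads outside annotated genes made up 4.25% to 4.34% of reads in the control libraries and 6.07% to 6.12% in the DKO libraries, and the 10 most abundant genes took 5.51% to 6.27% of assigned reads in control and 12.6% to 13.8% in DKO libraries. Control replicate 3 stood apart for genes abundant in DKO cells. In 8 of 8 genes with at least 1000 reads in every DKO library and under 1% of that level in the other control libraries, it lay above both of them, by a median of 0.572% of the DKO level. Where a fold printed here moved by more than 1.5 times without it, the value without it or the place of the control reads is given as well, and its part in these differences was not tested.

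The transcripts of the targeted genes were still detected in every DKO library. Hdac5, on chr11:102055746-102091480 (mm9), gave 127, 138 and 124 CPM in control replicates 1, 2 and 3 and 80.8, 78.5 and 88.9 CPM in DKO replicates, a log2 fold change of −0.65 (SE 0.05, adjusted p = 4.03e-10). Hdac4 is counted under 2 gene IDs. The one that spans most of the gene, ENSMUSG00000026313 at chr1:93829334-94044970, gave 28.4, 23.3 and 24.9 CPM in control and 11.8, 16.6 and 14.1 CPM in DKO cells, a log2 fold change of −0.85 (SE 0.10, adjusted p = 2.35e-06). The one at its 3' side, ENSMUSG00000073617 at chr1:93825362-93827753, had a log2 fold change of −0.38 (SE 0.08, adjusted p = 0.000122). In all 3 cases the difference was under 2-fold and the groups did not overlap, as was so for 75.5% of all genes tested. Reads per gene do not show whether a transcript carries an edited site, so these levels do not test the labels. The list of the class IIa circuit, in which these 3 IDs are counted, had 11 IDs tested, of which 2 were called higher and 1 lower, where called means more than 2-fold at an adjusted p under 0.05. Over all genes tested 16.7% were called, 8.58% higher and 8.08% lower, which are the shares to set beside each count of called list members. Hdac9, a further class IIa deacetylase, rose from 6.6, 6.66 and 5.39 to 27.5, 32.7 and 27.7 CPM (log2 fold change 2.23, SE 0.10, adjusted p = 1.65e-14). Mef2d, a MEF2 factor, rose from 104, 101 and 108 to 266, 279 and 269 CPM (log2 fold change 1.38, SE 0.04, adjusted p = 2.01e-17), while Mef2a and Mef2c had log2 fold changes of 0.79 and 0.57. Sik1, a kinase that acts on class IIa deacetylases, fell by 1.07 on the log2 scale (SE 0.11, adjusted p = 2.84e-06), and by 0.95, under the 2-fold limit, without DKO replicate 2. Of the other histone deacetylases and sirtuins, 1 of 14 was called, Sirt7 (log2 fold change 1.26), whose annotation overlaps Mafg.

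Across the transcriptome, 12984 genes passed the filter on low counts and 2163 of them (16.7%) were called, that is, differed more than 2-fold at an adjusted p under 0.05 (edgeR quasi-likelihood test with Benjamini-Hochberg adjustment over all genes tested). Of these, 1114 were higher in DKO cells (8.58% of genes tested) and 1049 lower (8.08%). The median log2 fold change was 1.56 among the higher and −1.61 among the lower genes, against 0.00287 over all genes tested. The change exceeded 8-fold for 183 higher and 155 lower genes. Many were close to silent in a line, as 394 of the higher genes averaged under 1 CPM in control cells and 401 of the lower genes under 1 CPM in DKO cells. Because replicates were so alike, 9520 genes had an adjusted p under 0.05 whatever their fold, and in 9802 genes (75.5%) the 3 libraries of one line lay above the 3 of the other, so that separation of the groups by itself distinguishes few genes.

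Genes for matrix and secreted proteins were among those that rose most. Among the 15 highest log2 fold changes, taken over called genes of moderate or high level whose groups did not overlap, were Sost, the collagen chains Col2a1, Col10a1, Col4a1 and Col4a2, the mineralisation regulator Mepe, and the WNT antagonists Dkk1 and Frzb. Irx1, a homeobox factor, gave 0, 0 and 0.308 CPM in control and 39.8, 35.4 and 37.5 CPM in DKO libraries. Pex5l, which encodes a relative of the peroxisomal import receptor, had 1 read over the control libraries and 966 over the DKO libraries, a ratio of 1018 (95% counting interval 182 to 40237), and the control read was in replicate 3. The chromatin organiser Satb1 had 3 and 1005 reads, a ratio of 353 (120 to 1714). The control replicates 1, 2 and 3 held 0, 2 and 1 of these reads, with a log2 fold change of 8.29, or 9.13 without control replicate 2. Ctsf, a lysosomal cysteine protease, rose to 36.5, 33.7 and 42.3 CPM from 0, 0.0508 and 0.154 CPM, Limch1, an activator of non-muscle myosin, to 37.6, 46 and 38.1 from 0.0515, 0.0508 and 0.308 CPM, and Hpgd, which inactivates prostaglandins, to 19.7, 19.3 and 21 from 0.258, 0.152 and 0.103 CPM. B3galt2, a galactosyltransferase that overlaps Cdc73 on the other strand, rose to 141, 146 and 140.4 from 0.155, 0.254 and 0.668 CPM.

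At the other end, the epidermal transcription factor Grhl3 had 1273 reads over the control libraries and 1 over the DKO libraries, a ratio of 1208 (95% counting interval 216 to 47765), and the read in DKO cells came from replicate 3. The lactate exporter gene Slc16a3 and the WNT feedback inhibitor Nkd1 were also in this group. Others were Morc1 (19.3, 17.6 and 17.4 to 0.107, 0.108 and 0.109 CPM), the adhesion molecule Flrt3 (18.1, 18.1 and 17.5 to 0.215, 0.161 and 0.163 CPM), the phospholipase gene Plcb1 (17.5, 19.2 and 17.3 to 0.269, 0.376 and 0.109 CPM) and the potassium channel gene Kcnma1 (20.7, 16.8 and 17.6 to 0.484, 0.376 and 0.327 CPM). All 15 of these genes were also called lower in the FFSS libraries, and all 15 of the highest were called higher there.

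Several osteocyte markers were far higher in DKO cells. Of 14 markers, 11 were tested, 4 were called higher and 1 lower, against 8.58% and 8.08% over all genes, and the summed level lay between 1170 and 1219 CPM in control and between 4647 and 4788 CPM in DKO libraries. Sost gave 28, 41 and 236 reads in control replicates 1, 2 and 3 and 38134, 37343 and 36753 reads in DKO replicates, which is 1.44, 2.08 and 12.1 CPM against 2050, 2008 and 2001 CPM. Its log2 fold change was 8.60 (SE 0.55, adjusted p = 0.000134), and 10.15 without control replicate 3. Every DKO library was far above every control library. Dmp1, a matrix phosphoprotein of osteocyte canaliculi, rose from 26.9, 22.6 and 36.7 to 569, 541 and 600.3 CPM (log2 fold change 4.31, SE 0.18, adjusted p = 1.21e-05). Phex, an osteocyte endopeptidase needed for phosphate balance, rose from 35.9, 23 and 38.6 to 881, 1043 and 928 CPM (log2 fold change 4.87, SE 0.21, adjusted p = 2.71e-05). Mepe, a phosphoprotein of the same family as Dmp1, had 3, 0 and 4 reads in control and 289, 315 and 337 reads in DKO libraries. This is a log2 fold change of 7.07 (SE 0.24, adjusted p = 2.98e-16), and 7.66 without control replicate 3.

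A marker of the early, process-forming osteocyte moved the other way. Pdpn, a membrane protein of young osteocytes with growing dendrites, fell from 27.6, 28.6 and 26.9 to 5.16, 4.95 and 4.9 CPM (log2 fold change −2.47, SE 0.09, adjusted p = 2.83e-16). Fgf23, a phosphate-regulating hormone of mature osteocytes, had 1 read in 1 control library and 0 in the other 5 libraries, and Npy had 0 in all 6. Whether more cells of a type or more RNA per cell lies behind a difference cannot be told apart in such bulk samples.

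**Figure D1:**
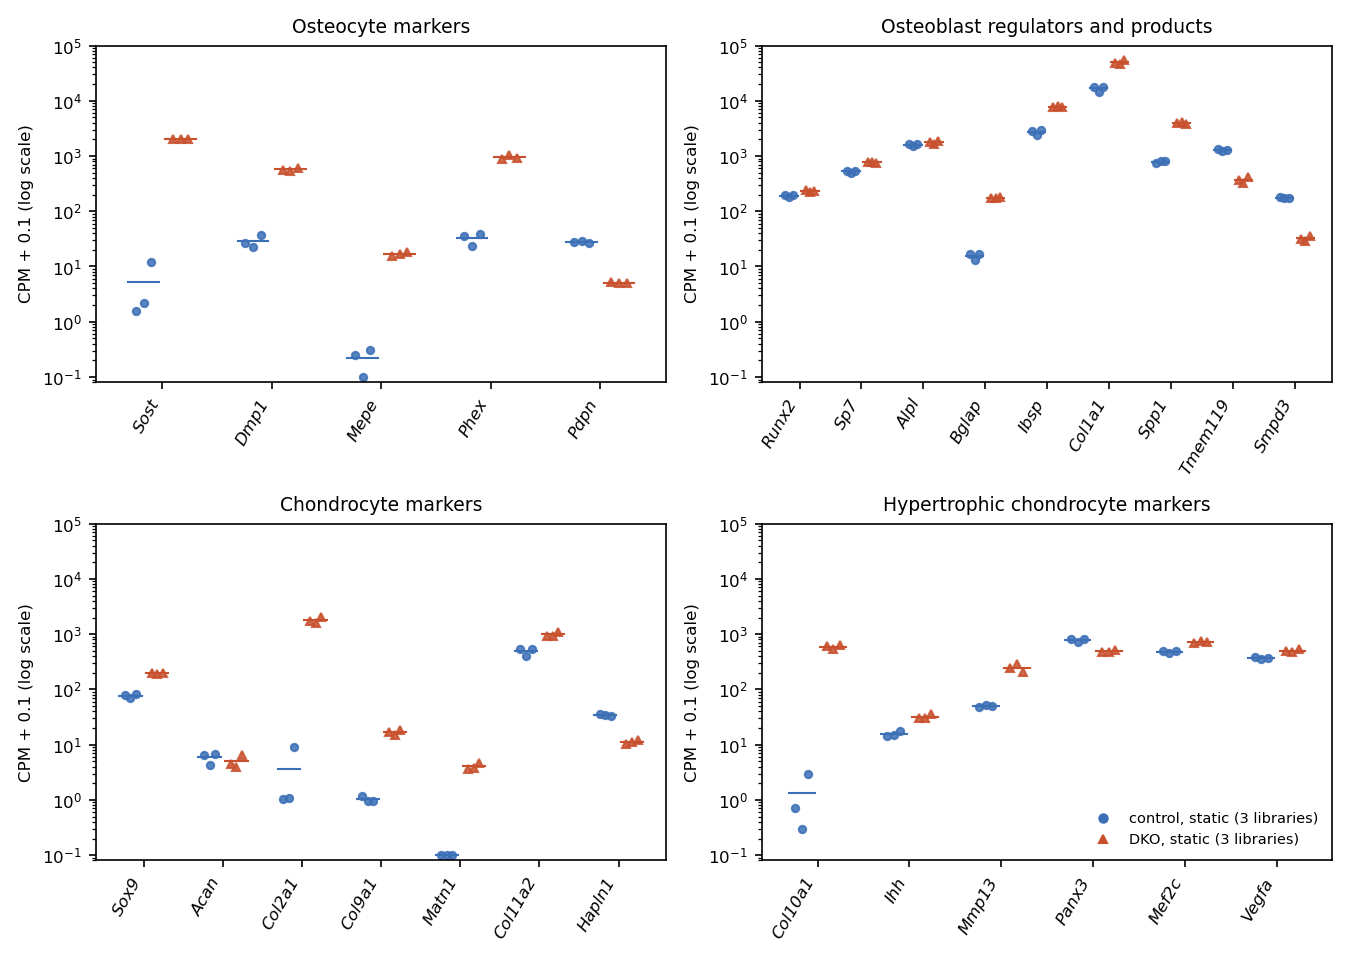
Level of cell type markers in each static library, in CPM plus 0.1 on a log scale, with circles for the 3 control and triangles for the 3 DKO libraries and a line at each mean. Sost, Mepe, Col2a1, Matn1 and Col10a1 lie far lower in every control library than in every DKO library, whereas Runx2, Sp7 and Alpl differ by less than 2-fold. Control replicate 3 lies above the other control libraries for Sost, Col2a1 and Col10a1.

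Of 28 IDs of osteoblast genes, 26 were tested, 10 were called higher and 2 lower, with a median log2 fold change of 0.50. The lineage regulators did not pass the 2-fold limit, with Runx2 at 198, 184 and 193 CPM in control and 241, 225 and 232 CPM in DKO cells (log2 fold change 0.28) and Sp7 at 533, 502 and 539 and 776, 777 and 758 CPM (log2 fold change 0.56). Alpl, the alkaline phosphatase of mineralising cells, had a log2 fold change of 0.16. By contrast some secreted products of late osteoblasts were called higher. Bglap, osteocalcin, went from 16.4, 12.9 and 16.9 to 173, 175 and 179.9 CPM (log2 fold change 3.51, SE 0.07, adjusted p = 5.04e-19), and its near-identical copy Bglap2, between which and Bglap reads can be lost, had a log2 fold change of 3.13. Spp1, osteopontin, rose from 745, 813 and 814 to 3953, 4120 and 3730 CPM, and Ibsp, bone sialoprotein, from 2850, 2408 and 2906 to 7749, 7918 and 7656 CPM (log2 fold changes 2.31 and 1.51). The call of Ibsp was lost in the fit of all 12 libraries (adjusted p = 0.0551). The pair that fell was Tmem119, a membrane protein of differentiating osteoblasts (1338, 1239 and 1300 to 374, 322 and 418 CPM, log2 fold change −1.80), and Smpd3, a sphingomyelinase needed for mineralisation (178, 170.0 and 176 to 31.9, 29.2 and 35.7 CPM, log2 fold change −2.43).

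Part of the cartilage programme was present in DKO cells and nearly absent from control cells. Of 22 chondrocyte markers, 16 were tested, 7 were called higher and 1 lower. Col2a1, the main collagen of cartilage, gave 18, 19 and 173 reads in control and 31798, 29518 and 37616 reads in DKO libraries, a log2 fold change of 8.95 (SE 0.57, adjusted p = 0.000133), and 10.87 without control replicate 3. Matn1, a cartilage matrix protein, had 0 reads in the control libraries and 66, 67 and 85 in the DKO libraries, at least 25.4-fold higher against a floor of 3 reads in a library. Col9a1, a collagen of the type II fibril surface, rose from 1.08, 0.864 and 0.873 to 16.8, 15.1 and 18.1 CPM (log2 fold change 4.14, SE 0.15, adjusted p = 4.79e-16). Sox9, the factor that specifies chondrocytes, was expressed in both lines and rose from 79.7, 70.2 and 81.1 to 196, 187 and 199 CPM (log2 fold change 1.33, SE 0.05, adjusted p = 2.17e-15).

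Other members of the cartilage list were divided. Comp, Prg4 and Col11a2, of cartilage matrix, joint surface and fibril, had log2 fold changes of 1.31, 1.11 and 1.02. Acan, the large proteoglycan of cartilage, gave 6.49, 4.17 and 6.78 CPM in control and 4.35, 3.82 and 6.42 CPM in DKO cells, overlapping levels with a log2 fold change of −0.26 (SE 0.21, adjusted p = 0.293). Hapln1, which links Acan to hyaluronan, fell from 36.4, 34.3 and 32.9 to 10.4, 10.9 and 12.2 CPM (log2 fold change −1.63, SE 0.08, adjusted p = 4.88e-14), and Epyc, Ucma and Lect1 had at most 1 read in any library. Among hypertrophic markers, 3 of 7 tested were called higher. Col10a1, the collagen of hypertrophic chondrocytes, gave 12, 4 and 55 reads in control and 11214, 9892 and 11633 reads in DKO libraries, a log2 fold change of 8.92 (SE 0.37, adjusted p = 2.25e-05), and 10.47 without control replicate 3. Mmp13, the collagenase of hypertrophic cartilage and of osteoblasts, rose from 47.7, 52.2 and 49.8 to 248, 282 and 209 CPM (log2 fold change 2.30, SE 0.12, adjusted p = 5.08e-06), and Ihh, the hedgehog ligand of the growth plate, from 14, 14.9 and 17.2 to 30.1, 29.9 and 35.1 CPM (log2 fold change 1.05). The call of Ihh was lost with library totals alone, in the fit of all 12 libraries (adjusted p = 0.0635), and without control replicate 1 (log2 fold change 0.98) or DKO replicate 3 (0.97). Panx3 (log2 fold change −0.69) did not pass the 2-fold limit.

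The 250 bases upstream of the annotated start are printed for Sost, Col2a1 and Col10a1, because each of these genes had at most 236 reads in any control library and at least 9892 in every DKO library. They were read 5' to 3' on the gene's strand from the NCBIM37 (mm9) genome and searched on both strands for the MEF2 letters CTANNNNTAG and for TATAAA, with matches in capitals. Sost lies at chr11:101828330-101828579 (minus strand), Col2a1 at chr15:97835156-97835405 (minus strand) and Col10a1 at chr10:34109537-34109786 (plus strand).
Sost: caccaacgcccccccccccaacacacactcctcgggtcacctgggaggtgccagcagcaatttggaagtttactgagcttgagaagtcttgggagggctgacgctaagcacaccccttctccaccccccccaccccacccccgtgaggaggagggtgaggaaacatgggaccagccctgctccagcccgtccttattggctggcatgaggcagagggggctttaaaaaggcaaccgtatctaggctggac
Col2a1: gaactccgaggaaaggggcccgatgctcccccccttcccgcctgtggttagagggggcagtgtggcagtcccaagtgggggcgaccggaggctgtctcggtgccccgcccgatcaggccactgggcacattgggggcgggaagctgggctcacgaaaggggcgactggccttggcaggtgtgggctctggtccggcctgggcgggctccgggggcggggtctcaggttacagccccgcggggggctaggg
Col10a1: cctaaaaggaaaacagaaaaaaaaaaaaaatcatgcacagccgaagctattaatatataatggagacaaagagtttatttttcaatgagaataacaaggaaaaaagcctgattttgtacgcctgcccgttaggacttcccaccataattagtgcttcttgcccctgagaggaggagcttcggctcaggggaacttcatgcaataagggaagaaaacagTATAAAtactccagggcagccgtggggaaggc
Neither motif occurs in the Sost or the Col2a1 window, and Col10a1 holds 1 TATAAA that begins 32 bases before the start. The study's introduction places the known MEF2C site of Sost in a downstream enhancer, which this upstream window does not cover. The MEF2 letters were found in 2.68% of the 12180 promoters of tested protein-coding genes, in 3.06% of those called higher and in 2.79% of those called lower. TATAAA was found in 6.53% of all, 9.76% of the higher and 9.29% of the lower. These are counts of letters in a short window and say nothing of binding.

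Many defining markers of other lineages were at or near 0 in both lines. Pecam1 and Ptprc had at most 5 reads in any library, Cdh5, Kdr, Myod1 and Sox10 at most 1, and Myog, Snap25 and Calcr had 0 reads in all 6. The epithelial list had no member above the filter on low counts, out of 7. Other defining markers were expressed. Acta2, smooth muscle actin, which many cultured mesenchymal cells also make, fell from 339, 371 and 327 to 149, 140.1 and 181 CPM (log2 fold change −1.14, SE 0.10, adjusted p = 3.55e-05), with 2 of 4 smooth muscle genes tested called lower, while Myh11 and Cnn1 had at most 5 reads in any library. Ctsk, a protease of osteoclasts, gave 72.8, 74.8 and 76.9 and 56.4, 53.3 and 55.1 CPM (log2 fold change −0.44) and Des, of muscle, 8.09, 6.61 and 6.47 and 10.2, 8.76 and 8.11 CPM (log2 fold change 0.36), neither of them called. The muscle actin gene Acta1 fell from 14.4, 12.6 and 15.6 to 2.36, 1.94 and 2.89 CPM and the osteoclast protease gene Mmp9 from 2.37, 2.85 and 2 to 0.645, 0.538 and 0.599 CPM (log2 fold changes −2.57 and −2.01). Tubb3, a tubulin of neurons and of many cultured cells, fell from 117, 101 and 108 to 7.95, 7.96 and 10.1 CPM (log2 fold change −3.64, SE 0.08, adjusted p = 6.3e-18), and Vwf, the clotting factor carrier of endothelium, from 27.9, 27.3 and 26.3 to 4.89, 3.87 and 4.57 CPM (log2 fold change −2.61). The endothelial list, of whose 7 members Vwf alone was tested, thus stood at 26.3 to 27.9 CPM in control and 3.87 to 4.89 CPM in DKO libraries. The haematopoietic list was divided, with 2 of 4 tested called higher and 1 lower. The lysosomal protein gene Cd68 fell from 24.1, 27.5 and 23 to 2.15, 2.53 and 2.12 CPM (log2 fold change −3.45), whereas Lyz2, lysozyme, rose from 0.412, 0.61 and 0.719 to 1.99, 2.2 and 2.07 CPM (log2 fold change 1.83). Csf1r, the receptor of Csf1, rose from 0.412, 0.254 and 0.257 to 0.591, 0.699 and 0.817 CPM (log2 fold change 1.17), a call that DESeq2 did not make (adjusted p = 0.0566). The list summed to 27.5 to 32.3 CPM in control and 10.3 to 11.2 CPM in DKO libraries. Fibroblast genes split, with 1 of 7 tested called higher and 3 lower, among the latter Ly6a (12.6, 16.8 and 15.8 to 4.19, 4.14 and 4.68 CPM). The summed level of the fibroblast list was 547 to 589 CPM in control and 720 to 781 CPM in DKO libraries. Of the tendon genes, the factor Scx, which overlaps Bop1, fell from 25.7, 30.3 and 31.3 to 7.47, 7.47 and 8.76 CPM, while Mkx and Fmod had log2 fold changes of 1.06 and 1.06. Both were at 0.97 and no longer called with library totals alone, and Mkx 0.98 without control replicate 2. The part of these genes in the other differences was not tested.

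HOX genes record the position of a cell along the body and limb. Of 28 HOX genes tested, 4 were called higher and 3 lower, with a median log2 fold change of 0.03, and their summed level was 332 to 340 CPM in control and 327 to 345 CPM in DKO libraries. Hoxb9 fell from 62.9, 61.2 and 55 to 19.9, 17.9 and 19.1 CPM (log2 fold change −1.65, SE 0.07, adjusted p = 3.51e-15) and Hoxa11 from 11, 8.99 and 11.2 to 4.46, 3.49 and 3.86 CPM. Among those called higher, Hoxb5 went from 0.722, 0.661 and 0.462 to 2.04, 1.77 and 2.5 CPM. Of 20 other limb patterning genes tested, 4 were called higher and 2 lower. Pax9, a paired box factor, fell from 13.5, 14.3 and 15.3 to 4.57, 4.68 and 4.68 CPM. Of 25 proliferation genes tested, 0 were called by edgeR, by DESeq2 or by limma-voom, although 18 were lower and 3 higher at an unadjusted p under 0.05, and the median log2 fold change was −0.28.

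The collagen content of the transcriptome was larger and of another make-up in DKO cells. Col1a1 and Col1a2, the chains of bone collagen, together took 2.62% to 3.15% of assigned reads in control and 8.11% to 9.14% in DKO libraries. Col1a1 gave 17819, 14543 and 17774 CPM in control and 48209, 46339 and 53662 CPM in DKO libraries (log2 fold change 1.56, SE 0.08, adjusted p = 6e-08), and Col1a2 gave 12821, 10617 and 12924 and 37167, 37291 and 41228 CPM (log2 fold change 1.67, SE 0.07, adjusted p = 1.51e-09). Per kilobase of exon (RPKM), Col1a1 was the most abundant of 33 collagen chains in both lines, at 2546 ± 286 in control and 7528 ± 580 RPKM in DKO cells (SD, n = 3). The order below it changed. Col2a1 went from the 25th place (0.596 ± 0.760 RPKM) to the 3rd (295 ± 39.6 RPKM), and Col10a1 from the 27th (0.388 ± 0.450 RPKM) to the 5th (188 ± 16.6 RPKM), whereas Col5a2 stood at 268 ± 14.7 and 260 ± 5.15 RPKM. Without control replicate 3, Col2a1 was the 29th in control cells at 0.157 RPKM and Col10a1 the 30th at 0.131 RPKM.

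Of 11 fibrillar chains tested, 6 were called higher and 1 lower, with a median log2 fold change of 1.02. Col24a1 and Col27a1, minor fibrillar chains of developing bone and cartilage, rose from 10.5, 9.25 and 11.6 to 71.1, 80.1 and 71.5 CPM and from 3.56, 3.71 and 2.98 to 38.9, 41.4 and 50.8 CPM. Col11a2 lay at the limit (log2 fold change 1.02, SE 0.16, adjusted p = 0.00345). Its call was lost with library totals alone, in the fit of all 12 libraries (adjusted p = 0.118), and without control replicate 2 (log2 fold change 0.89) or DKO replicate 3 (0.93). The chain that fell was Col3a1, typical of skin, vessel and repair tissue, from 462, 429 and 456 to 65.6, 65.9 and 61 CPM (log2 fold change −2.81, SE 0.05, adjusted p = 4.98e-21). Among 21 other chains tested, 9 were called higher and 3 lower. Col4a1 and Col4a2, the network chains of basement membrane, rose from 0.567, 0.711 and 2.11 to 203, 206 and 228 CPM and from 0.309, 0.559 and 1.85 to 246, 236 and 253 CPM, log2 fold changes of 7.55 and 8.07, or 8.36 and 9.11 without control replicate 3. The annotations of this pair overlap on opposite strands, and reads in the shared stretch were not counted. Col13a1, a transmembrane collagen, rose from 2.58, 1.52 and 2.21 to 44, 54.9 and 49.8 CPM, and Col8a1, a short-chain collagen, fell from 277, 298 and 264 to 42.3, 40.3 and 46.8 CPM (log2 fold change −2.70).

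**Figure D2:**
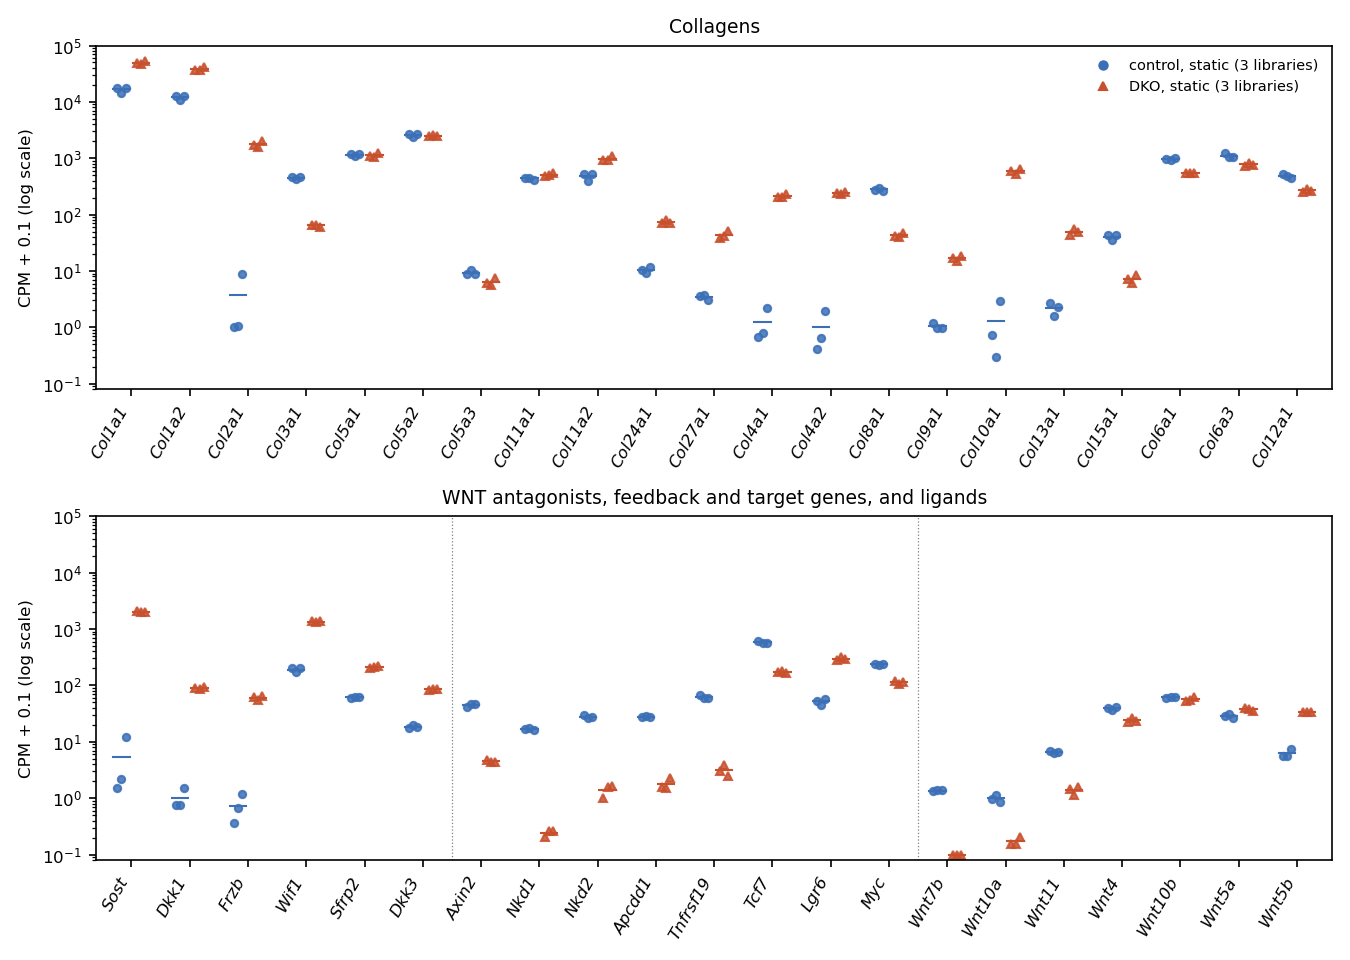
Levels in each static library, in CPM plus 0.1 on a log scale, of 21 collagen chains (top) and of WNT antagonists, feedback and target genes, and ligands (bottom, separated by dotted lines), with circles for control, triangles for DKO and a line at each mean. Col2a1, Col10a1, Col4a1, Col4a2, Sost, Dkk1 and Frzb lie at or under 12.1 CPM in control cells and at or above 54.7 CPM in DKO cells, and Axin2, Nkd1 and Apcdd1 lie lower in DKO cells.

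Other basement membrane genes were mixed, with 5 of 16 tested called higher and 2 lower. Nid1, which joins laminin to type IV collagen, rose from 0.155, 0.102 and 0.0514 to 4.62, 3.71 and 5.39 CPM and the laminin chain Lama3 from 0.619, 0.356 and 0.873 to 10.7, 11.7 and 10.7 CPM, while Lama1 fell from 8.35, 7.72 and 6.78 to 0.0537, 0.645 and 0.435 CPM. Of 22 proteoglycans tested, 3 were called higher and 6 lower, and their summed level was 8899 to 9329 CPM in control and 13235 to 13779 CPM in DKO libraries. Bgn, biglycan, gave 3215, 2902 and 3217 and 5034, 4616 and 5024 CPM (log2 fold change 0.65), and Fmod, fibromodulin, rose from 1347, 1342 and 1325 to 2872, 2802 and 2706 CPM. Omd, osteomodulin, fell from 84.1, 72.3 and 76 to 6.23, 6.29 and 6.97 CPM (log2 fold change −3.57, SE 0.08, adjusted p = 3.39e-19), Aspn, which binds TGF-β, had a log2 fold change of −2.41 and Ogn of −1.46, all of them in a cluster overlapped by Cenpp on the other strand. Vcan, a large hyaluronan-binding proteoglycan, rose from 2.53, 2.54 and 2.72 to 22.1, 27.7 and 25 CPM (log2 fold change 3.26, SE 0.12, adjusted p = 4.59e-16). Bcan had 0 reads in control libraries and was at least 7.68-fold higher in DKO libraries, though its level there was only 0.967, 1.24 and 1.36 CPM.

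Structural glycoproteins had 14 members called higher and 6 lower of 43 tested. The latent TGF-β binding proteins Ltbp1 and Ltbp2, which hold the growth factor in the matrix, rose from 63, 66.2 and 71.3 to 464, 487 and 469 CPM and from 6.29, 6.1 and 5.85 to 49.7, 52.7 and 53.1 CPM, log2 fold changes of 2.82 and 3.09. Nov, a CCN family protein, fell from 28.2, 26.7 and 26.4 to 4.62, 3.82 and 2.94 CPM. Fn1, fibronectin, was among the most abundant at 4744, 4147 and 4277 and 5875, 6055 and 6102 CPM and was not called (log2 fold change 0.45). Of 26 enzymes and chaperones that process collagen, 5 were called higher and 2 lower. The collagen chaperone Serpinh1 had a log2 fold change of 0.48, and the cross-linking enzyme Tgm2, which overlaps Rprd1b, rose from 0.722, 0.457 and 0.514 to 5.43, 7.1 and 6.42 CPM.

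Proteases that remodel matrix moved in both directions. Of 13 matrix metalloproteinases tested, 5 were called higher and 3 lower. Mmp2 and Mmp14, collagenolytic enzymes expressed in both lines, were not called (log2 fold changes 0.03 and −0.18). The groups overlapped for Mmp2 and not for Mmp14. Mmp3 had 0 reads in DKO libraries against 1.19, 0.559 and 1.44 CPM in control, at least 6.50-fold lower. Of 18 ADAMTS genes tested, 3 were called higher and 7 lower. Adamts18 fell from 39.5, 31.9 and 39.2 to 1.02, 1.08 and 1.31 CPM (log2 fold change −5.01, SE 0.14, adjusted p = 2.22e-17), and the aggrecanase Adamts5 from 42.8, 41.1 and 41.9 to 17.7, 15.9 and 16.3 CPM. Protease inhibitors included a large rise of Serpine2, a serpin of thrombin and plasminogen activators, from 106, 118 and 128 to 1940, 1928 and 1859 CPM (log2 fold change 4.02, SE 0.06, adjusted p = 1.17e-18), and a fall of Timp3 from 245, 234 and 226 to 70.4, 70.6 and 68 CPM. Among integrins, 2 of 19 tested were called higher and 4 lower. Itgb3, the subunit that pairs with αv to bind osteopontin and bone sialoprotein, rose from 7.47, 6.5 and 7.5 to 168, 178 and 172 CPM (log2 fold change 4.59, SE 0.06, adjusted p = 4.29e-22), whereas Itgb1, the commonest, had a log2 fold change of −0.53.

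WNT signalling genes split by role. The pathway is opened by secreted WNT ligands at Frizzled and LRP5/6 receptors, is held back outside the cell by antagonists such as sclerostin, and switches on its own intracellular and membrane inhibitors, so that the latter serve as target genes. Of 13 antagonists, 8 were tested, 6 were called higher and 0 lower by edgeR, as by DESeq2 and limma-voom (0 lower at an unadjusted p under 0.05), and the median log2 fold change was 2.51 against 0.00287 over all genes. Besides Sost, Dkk1, which blocks LRP5/6, rose from 0.67, 0.661 and 1.39 to 89.1, 84.7 and 92.9 CPM (log2 fold change 6.61, SE 0.12, adjusted p = 6.8e-20, and 7.05 without control replicate 3), and Frzb, which binds the ligand, from 0.258, 0.559 and 1.08 to 62.6, 54.7 and 64.2 CPM (log2 fold change 6.57, SE 0.17, adjusted p = 1.94e-14), or 7.18 on the log2 scale without control replicate 3. Wif1, a further ligand-binding antagonist, was already expressed in control cells and rose from 201, 169.6 and 201 to 1370, 1323 and 1370 CPM (log2 fold change 2.83, SE 0.06, adjusted p = 9.24e-17). Sfrp2 and Dkk3 rose as well (log2 fold changes 1.79 and 2.20). Per kilobase, Sost was the most abundant antagonist of DKO cells at 977 RPKM, ahead of Wif1 at 558 RPKM, while in control cells Wif1 led at 78.5 ± 7.46 RPKM and Sost stood at 2.52 ± 2.90 RPKM (SD, n = 3), or 0.854 RPKM without control replicate 3.

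Of 15 feedback and target genes of the pathway tested, 9 were called lower and 1 higher, against 8.08% and 8.58% over all genes, with a median of −1.14. Axin2, a scaffold of the β-catenin destruction complex, fell from 42, 46.7 and 46.6 to 4.57, 4.25 and 4.3 CPM (log2 fold change −3.36, SE 0.09, adjusted p = 1.98e-18). Nkd1 and Nkd2, which bind Dishevelled, fell from 16.7, 17.2 and 16 to 0.107, 0.161 and 0.163 CPM and from 29.7, 25.9 and 27 to 0.914, 1.51 and 1.52 CPM. Apcdd1, a membrane inhibitor, fell from 27.9, 28.1 and 27.5 to 1.5, 1.4 and 2.18 CPM (log2 fold change −4.04, SE 0.12, adjusted p = 1.5e-17), and the WNT-induced receptor Tnfrsf19 from 66.7, 60 and 59 to 2.96, 3.76 and 2.34 CPM (log2 fold change −4.35, SE 0.10, adjusted p = 2.2e-18). Tcf7, a DNA-binding partner of β-catenin, fell from 601, 572 and 570.5 to 169.6, 177 and 167 CPM (log2 fold change −1.76). The exception was Lgr6, an R-spondin receptor, which rose from 53.1, 45 and 57.9 to 279, 315 and 289 CPM (log2 fold change 2.50, SE 0.08, adjusted p = 7.43e-11). Of 11 ligands tested, 1 was called higher and 3 lower. Wnt7b had 0 reads in DKO libraries against 1.24, 1.27 and 1.28 CPM in control, at least 7.74-fold lower, Wnt11 fell from 6.8, 6.25 and 6.57 to 1.34, 1.02 and 1.47 CPM, and Wnt5b, a ligand that mostly acts without β-catenin and overlaps Fbxl14, rose from 5.57, 5.54 and 7.34 to 33.5, 33.3 and 34.1 CPM. In the FFSS libraries, all 6 antagonists and 7 of the 10 feedback and target genes were called in the same direction.

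Of 13 inhibitors of the BMP and TGF-β pathways tested, 6 were called higher and 1 lower, against 8.58% and 8.08% over all genes. Nog, which sequesters BMPs, rose from 1.7, 1.73 and 1.9 to 31.5, 28 and 37 CPM (log2 fold change 4.17, SE 0.13, adjusted p = 6.75e-16). Grem1, another BMP antagonist, had 3 reads over the control libraries and 490 over the DKO libraries, a ratio of 172 (95% counting interval 58.5 to 837), with all 3 control reads in replicate 3, and varied among DKO replicates at 12.4, 8.71 and 5.33 CPM. Bambi, a decoy receptor, rose from 68.9, 59.5 and 69.2 to 282, 267 and 282 CPM (log2 fold change 2.07, SE 0.05, adjusted p = 4.93e-18). Of 4 direct BMP targets tested, 3 were called higher and 0 lower, among them Id4 (0.876, 0.305 and 0.77 to 20.3, 14.9 and 18.4 CPM) and Id1 (16.6, 19.8 and 18.4 to 50.3, 42 and 49.2 CPM). Id2 lay at the 2-fold limit (log2 fold change 1.00, SE 0.04). Its call was not kept in every alternative, with a lowest value of 0.99 when 1 library was left out. Of 15 ligands tested, Tgfb2 and Tgfb3 rose (log2 fold changes 1.62 and 1.89) and Gdf6 and Inhba fell.

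Members of other developmental pathways were called in both directions. Of 12 FGF genes tested, 4 were called higher and 3 lower. The higher call of Fgf2 (8, 6 and 9 reads in control, 11, 14 and 20 in DKO libraries, log2 fold change 1.03) was lost without DKO replicate 3 (0.77). Fgf7, a growth factor of mesenchyme, rose from 47.7, 49.3 and 50.3 to 204, 210.5 and 181 CPM (log2 fold change 2.01, SE 0.05, adjusted p = 1.51e-17), and Fgf18, a regulator of bone and cartilage growth, fell from 3.51, 3.61 and 3.65 to 0.161, 0.108 and 0.272 CPM (log2 fold change −4.27, SE 0.29, adjusted p = 2.7e-11). Of 11 hedgehog genes, Ihh, whose call depended on the settings as given above, rose and Gli2 and Gli3 were among those that fell, and the transcription factor Gli2 went from 43.4, 42 and 44.1 to 5.64, 4.84 and 4.84 CPM (log2 fold change −3.08, SE 0.08, adjusted p = 3.51e-18). Notch genes were called higher in 4 and lower in 4 of 14 tested. With library totals alone 2 were called higher. Among the lower, the call of Heyl (14, 18 and 17 reads in control, 0, 0 and 8 in DKO libraries) was not kept in every alternative. Hey1, a Notch target, rose from 2.73, 3.56 and 3.54 to 46.9, 44.4 and 47.5 CPM (log2 fold change 3.82, SE 0.09, adjusted p = 8e-19), while the ligand gene Jag1 fell from 50, 46.1 and 43.8 to 12.8, 13.2 and 12.8 CPM and the receptors Notch1 and Notch3 by 1.32 and 1.26 on the log2 scale.

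Factors by which osteocytes act on osteoclasts and blood cells moved in both directions, with 3 of 9 tested called higher and 2 lower. Tnfsf11, RANKL, the cytokine that osteoclasts need, rose from 1.03, 0.813 and 1.08 to 13.7, 13.1 and 12.8 CPM (log2 fold change 3.75, SE 0.15, adjusted p = 2e-15). Its decoy receptor Tnfrsf11b, osteoprotegerin, had 101, 108 and 99.9 CPM in control and 67.9, 61.3 and 60.2 CPM in DKO cells, a log2 fold change of −0.70 that did not pass the 2-fold limit. Csf1, the macrophage growth factor, rose from 254, 255 and 264 to 911, 891 and 861 CPM (log2 fold change 1.79), though in the FFSS libraries it was 0.59, and the chemokine Cxcl12 rose from 164, 169 and 152 to 718, 736 and 665 CPM (log2 fold change 2.13, SE 0.05, adjusted p = 8.6e-19). Sema3a, a semaphorin that protects bone, fell from 76.9, 73.6 and 70.3 to 9.46, 9.3 and 10 CPM (log2 fold change −2.94, SE 0.07, adjusted p = 4.35e-19). Lif, a cytokine of the interleukin-6 family, fell from 10.4, 10.2 and 10.4 to 3.6, 2.63 and 4.03 CPM (log2 fold change −1.59). Over 28 semaphorins, plexins and neuropilins tested, 4 were called higher and 8 lower.

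Of 25 interferon-inducible and antigen presentation genes tested, 15 were called lower and 0 higher by edgeR (0 also by DESeq2 and limma-voom, 2 at an unadjusted p under 0.05), with a median log2 fold change of −1.25, against 8.08% called lower over all genes. The summed level of the 15 was 4498 to 4712 CPM in control and 1465 to 1659 CPM in DKO libraries. H2-K1, a class I histocompatibility chain, fell from 659, 673 and 664 to 128, 109 and 141 CPM (log2 fold change −2.40, SE 0.07, adjusted p = 5.2e-11), and H2-D1 from 1222, 1229 and 1275 to 335, 301 and 356 CPM (log2 fold change −1.91, SE 0.05, adjusted p = 2.06e-16). Their partner B2m fell from 2351, 2319 and 2490 to 1062, 969.5 and 1066 CPM, and the peptide transporter Tap1 from 40.7, 44.6 and 43 to 10.9, 8.66 and 11.3 CPM. Of the 15 called, 14 were called lower in the FFSS libraries as well. Immediate early genes were divided. The NR4A receptors Nr4a1, Nr4a2 and Nr4a3, which are MEF2 targets in other cells, rose with log2 fold changes of 1.34, 1.80 and 3.48, and the AP-1 genes Jun and Fosl1, the latter overlapping Ccdc85b, fell by 1.42 and 2.13 on the log2 scale.

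**Figure D3:**
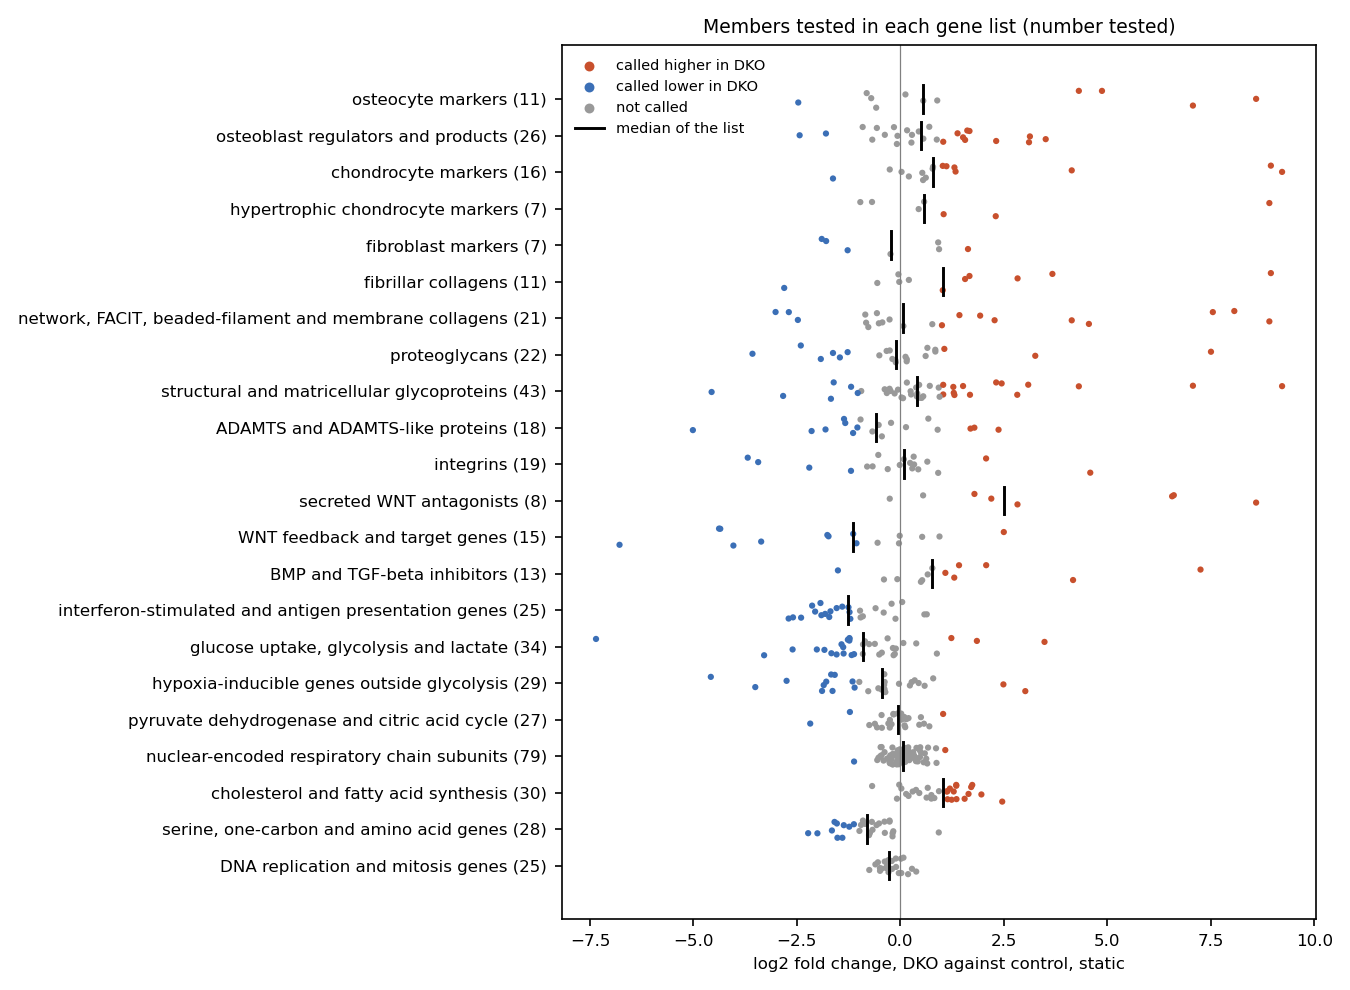
Log2 fold change (DKO minus control, static) of every tested member of 22 gene lists, 1 point for a gene, coloured by whether it was called higher, called lower or not called, with a black bar at each list's median. WNT antagonists and sterol synthesis lie to the positive side, and WNT feedback genes, interferon genes, glycolysis and amino acid genes to the negative side.

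Glycolysis genes were among the metabolic genes that differed between the lines. All 34 genes of the list were tested, 16 were called lower and 3 higher, against 8.08% and 8.58% over all genes, and the median log2 fold change was −0.90 against 0.00287 over all genes. Genes called lower stood at glucose uptake, at each step from hexokinase to enolase, and at the making and export of lactate. The isomerase gene Tpi1 was at −0.98 and not called without DKO replicate 2. Slc2a1 and Slc2a3, the glucose transporters, fell from 430.2, 446 and 406 to 123, 101 and 135 CPM and from 9.69, 7.37 and 6.93 to 0.806, 0.753 and 0.871 CPM. Gpi1, the isomerase of the pathway's upper part, fell from 676, 703 and 674 to 177, 145 and 185 CPM (log2 fold change −2.02, SE 0.08, adjusted p = 3.85e-09), and Pfkp, a phosphofructokinase that overlaps Pitrm1, from 102, 108 and 102 to 17.7, 15.4 and 18.1 CPM (log2 fold change −2.60, SE 0.06, adjusted p = 6.35e-19). Ldha, which makes lactate, fell from 2680, 2687 and 2713 to 1261, 1019 and 1290 CPM (log2 fold change −1.18, SE 0.08, adjusted p = 9.67e-07). Pkm2, pyruvate kinase, gave 3089, 3050 and 3131 CPM in control and 1753, 1364 and 1840 CPM in DKO libraries and did not reach 2-fold (log2 fold change −0.90, SE 0.12).

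Slc16a3, the monocarboxylate transporter that exports lactate, fell furthest. It had 1247, 1298 and 1141 reads in control and 5, 9 and 7 reads in DKO libraries, a log2 fold change of −7.36 (SE 0.13, adjusted p = 1.87e-20). Csnk1d overlaps it on the other strand, so reads in the shared stretch were not counted in either line. The genes that rose were of low or moderate level, namely Hk3, a hexokinase that overlaps Unc5a, Ldhb, the heart form of lactate dehydrogenase, and Pdk2, a brake on pyruvate oxidation (10.5, 14.3 and 11.1 to 28, 26.7 and 29.8 CPM). Within the DKO line, replicate 2 was the lowest for 14 of the 16 genes called lower. Their summed level was 4040, 3124 and 4228 CPM in DKO replicates 1, 2 and 3 against 9426, 9632 and 9538 CPM in control replicates. In the FFSS libraries 8 of the list were called lower, Slc16a3 with a log2 fold change of −6.66, and Ldha was at −0.46 and not called.

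Genes induced by hypoxia were examined beside glycolysis. Low oxygen stabilises HIF, which binds a core that often reads ACGTG near glycolytic genes and near the genes of its own regulators. Of 29 tested, 11 were called lower and 2 higher, against 8.08% and 8.58% over all genes, with a median of −0.45. Egln3 and Egln1, the prolyl hydroxylases that mark HIF for destruction, fell from 369.9, 349.5 and 342 to 32.8, 24.1 and 36.5 CPM (log2 fold change −3.51, SE 0.13, adjusted p = 1.1e-06) and from 641, 672 and 665 to 187, 145 and 200.4 CPM (log2 fold change −1.89, SE 0.12, adjusted p = 2.89e-05). Car9, a carbonic anhydrase of hypoxic cells, fell from 116, 125 and 136 to 5.64, 3.28 and 6.86 CPM (log2 fold change −4.58, SE 0.17, adjusted p = 1.12e-07), and Ddit4, an inhibitor of mTORC1, from 93.1, 86.7 and 96 to 11.4, 12.7 and 16.9 CPM (log2 fold change −2.75, SE 0.10, adjusted p = 2.77e-11). Ndrg1, a stress-induced differentiation gene, fell from 711, 691 and 665 to 199, 153 and 220.1 CPM (log2 fold change −1.85, SE 0.14, adjusted p = 0.00017). Here too DKO replicate 2 was lowest, in 10 of the 11 genes called lower, and their sums were 725, 545 and 804 CPM in DKO and 2673 to 2704 CPM in control libraries. Not all known hypoxia genes fell, since Adm, a vasodilator peptide, rose from 3.4, 2.64 and 3.49 to 16.1, 15.2 and 22.4 CPM (log2 fold change 2.49, SE 0.17, adjusted p = 1.6e-08), Car12 rose from 2.42, 2.74 and 2.21 to 19.9, 16.2 and 23.9 CPM (log2 fold change 3.02, SE 0.16, adjusted p = 6.85e-11), and Vegfa was not called (log2 fold change 0.44).

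**Figure D4:**
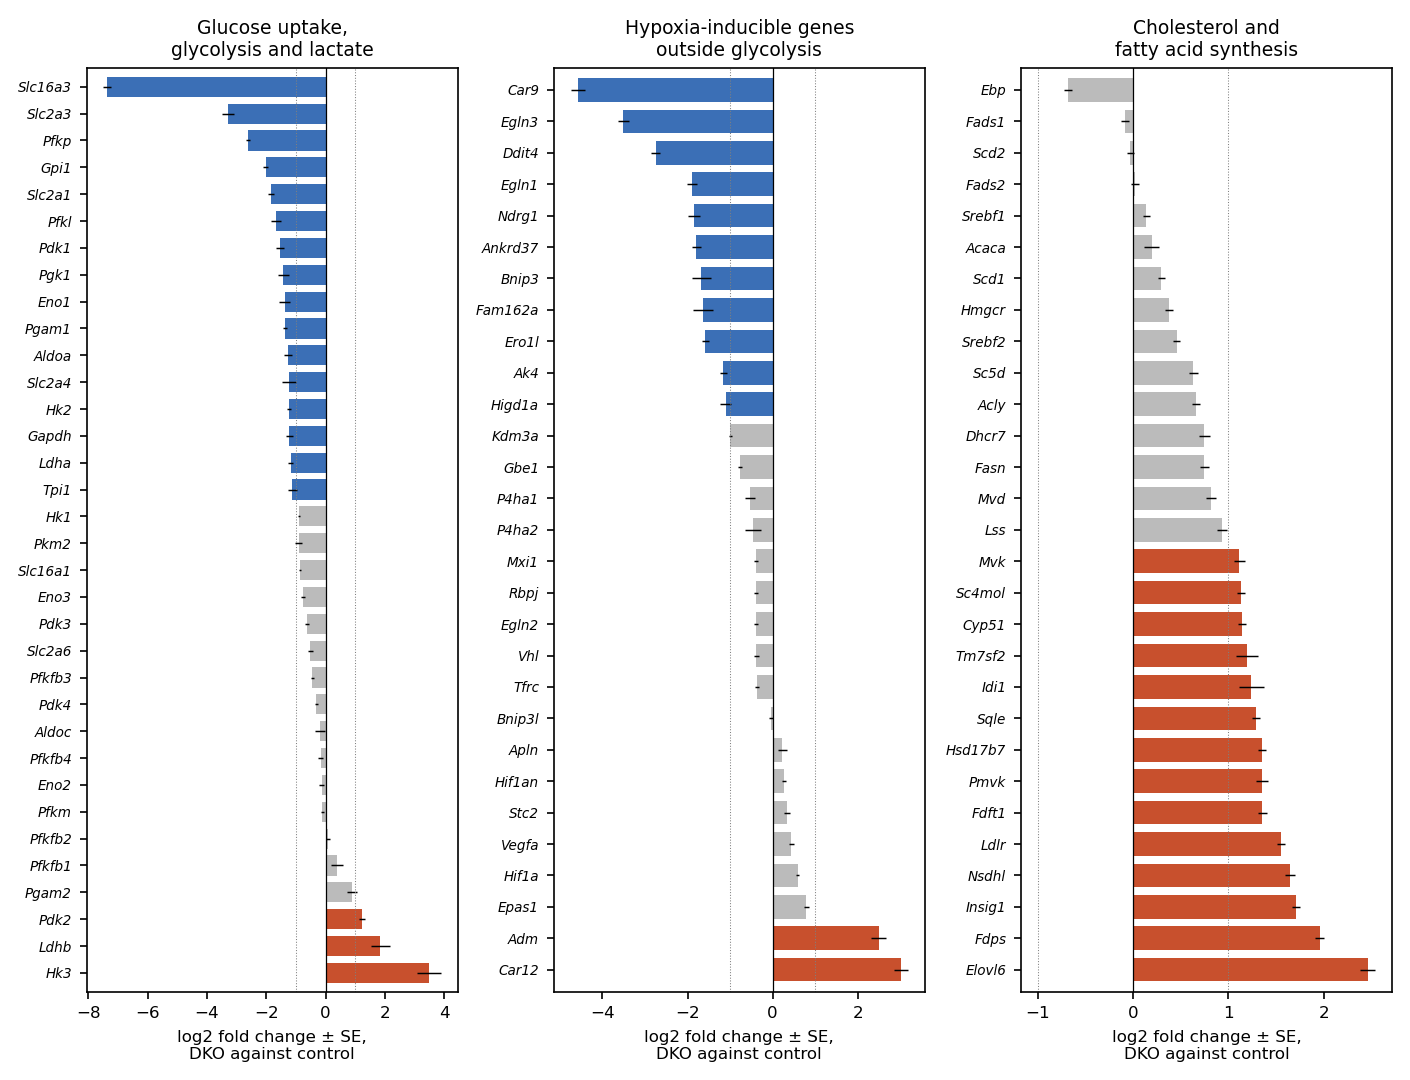
Log2 fold change (DKO minus control, static) with its standard error for tested genes of the glycolysis list (34 drawn), the hypoxia list (29 drawn) and the sterol and fatty acid synthesis list (29 drawn), with dotted lines at the 2-fold limits. Slc16a3 is the lowest bar at −7.36, Car9 reaches −4.58, and the sterol panel has 14 genes past the upper limit and 0 past the lower.

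The promoters of 4 of these hypoxia genes are printed to show the core letters where they occur, as 250 bases upstream of the start, 5' to 3' on the gene's strand in NCBIM37 (mm9), with ACGTG as it reads on that strand in capitals. They lie at chr12:55304848-55305097 (Egln3), chr10:59414519-59414768 (Ddit4), chr8:127473155-127473404 (Egln1) and chr8:47085222-47085471 (Ankrd37), all on the minus strand.
Egln3: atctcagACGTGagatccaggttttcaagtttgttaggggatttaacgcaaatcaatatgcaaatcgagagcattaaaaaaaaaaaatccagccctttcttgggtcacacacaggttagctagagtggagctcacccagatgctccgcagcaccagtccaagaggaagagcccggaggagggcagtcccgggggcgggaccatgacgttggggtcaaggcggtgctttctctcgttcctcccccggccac
Ddit4: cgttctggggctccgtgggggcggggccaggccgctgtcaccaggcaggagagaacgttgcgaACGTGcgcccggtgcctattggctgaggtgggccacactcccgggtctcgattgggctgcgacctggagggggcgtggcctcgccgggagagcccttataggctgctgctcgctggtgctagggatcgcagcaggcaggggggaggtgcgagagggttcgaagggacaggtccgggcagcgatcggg
Egln1: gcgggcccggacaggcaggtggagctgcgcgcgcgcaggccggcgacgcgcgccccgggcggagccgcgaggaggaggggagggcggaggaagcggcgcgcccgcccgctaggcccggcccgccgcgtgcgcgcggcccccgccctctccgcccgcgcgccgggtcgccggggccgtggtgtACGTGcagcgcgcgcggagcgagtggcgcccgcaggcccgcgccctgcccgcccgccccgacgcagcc
Ankrd37: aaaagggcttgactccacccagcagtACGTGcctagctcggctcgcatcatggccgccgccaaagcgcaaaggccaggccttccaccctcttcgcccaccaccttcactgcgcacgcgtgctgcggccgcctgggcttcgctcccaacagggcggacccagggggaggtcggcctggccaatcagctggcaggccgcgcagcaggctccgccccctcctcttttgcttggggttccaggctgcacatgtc
With both strands searched, ACGTG was found in 8 of the 11 hypoxia genes called lower (72.7%) and in 13 of the 29 tested (44.8%). Such a list is made of known HIF targets, so this share is no independent finding. It was found in 5 of the 16 glycolysis genes called lower (31.2%), in 21.8% of all 12180 promoters, in 18.6% of all genes called lower and in 18.2% of those called higher. Car9 and Ndrg1, which also fell, have no match in this window.

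Of 30 genes of sterol and fatty acid synthesis tested, 15 were called higher and 0 lower by edgeR (0 also by DESeq2 and limma-voom, 1 at an unadjusted p under 0.05), with a median log2 fold change of 1.02, against 8.58% called higher over all genes, and the 15 summed to 1092 to 1160 CPM in control and 2944 to 3051 CPM in DKO libraries. Fdps, which makes farnesyl diphosphate, rose from 45.4, 42.1 and 47 to 177, 175 and 171 CPM (log2 fold change 1.96, SE 0.05, adjusted p = 9.76e-19). Insig1, the sterol-sensing inhibitor of the pathway, rose from 123, 115 and 118 to 394, 378 and 398 CPM (log2 fold change 1.71, SE 0.04, adjusted p = 8e-19), and Elovl6, a fatty acid elongase, from 13.3, 12.6 and 13.8 to 70.3, 81.8 and 66.4 CPM (log2 fold change 2.46, SE 0.08, adjusted p = 1.29e-15). The regulator Srebf2 was not called (log2 fold change 0.46), nor were Fasn (0.75) and Scd2 (−0.03). All 15 were called higher in the FFSS libraries.

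Of 28 genes of amino acid supply tested, 10 were called lower, against 8.08% over all genes, and 0 were called higher by edgeR, DESeq2 or limma-voom (1 at an unadjusted p under 0.05), with a median of −0.81. Slc7a5 and Slc3a2, the subunits of a large neutral amino acid transporter, fell from 929, 831 and 825 to 188, 177 and 186 CPM (log2 fold change −2.23, SE 0.05, adjusted p = 4.97e-19) and from 632, 529 and 570.2 to 199, 192 and 207 CPM (log2 fold change −1.54, SE 0.06, adjusted p = 6.38e-13). Trib3, a pseudokinase induced by amino acid shortage, fell from 222, 164 and 189.6 to 49.5, 43.4 and 50.4 CPM, while the regulator Atf4 itself was not called (log2 fold change −0.38). Of 13 heat shock genes tested, 5 were called lower and 1 higher. Hspa1b, which has a near-identical copy, fell from 31.5, 30.9 and 28.9 to 1.77, 2.26 and 2.01 CPM (log2 fold change −3.91, SE 0.11, adjusted p = 5.6e-18), and Hspb8 rose from 6.7, 6.61 and 5.08 to 20.6, 23.4 and 21.5 CPM. Me1, a malic enzyme that makes NADPH, fell from 413, 379 and 399.8 to 87.3, 84.8 and 91.1 CPM (log2 fold change −2.18, SE 0.04, adjusted p = 1.3e-19).

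Of 79 respiratory chain genes encoded in the nucleus, 1 was called higher and 1 lower by edgeR at 2-fold, against 8.58% and 8.08% over all genes, both minor isoforms (Cox4i2 and Cox6a2), and the median log2 fold change was 0.07. The call of Cox4i2 was lost with library totals alone, in the fit of all 12 libraries (adjusted p = 0.0788), and without control replicate 2 (log2 fold change 0.78) or DKO replicate 3 (0.92). Cox4i1, a core subunit, gave 382, 395 and 412 CPM in control and 363, 356 and 381 CPM in DKO libraries, and Atp5b, of ATP synthase, 1261, 1292 and 1281 and 1215, 1235 and 1213 CPM. Of 27 genes of the citrate cycle and its side reactions, 1 was called higher and 2 lower, with a median of −0.07, and Cs, citrate synthase, had a log2 fold change of 0.12. The higher call, of Idh1 (log2 fold change 1.03), was lost with library totals alone and without control replicate 2. Of 19 fatty acid oxidation genes, 2 were called higher and 1 lower. The lower count was 0 without DKO replicate 1 and 2 with the study's filter on zero counts. Ppargc1a, the coactivator of mitochondrial genes, rose from 0.361, 0.61 and 0.668 to 3.6, 4.19 and 5.33 CPM (log2 fold change 2.99, SE 0.25, adjusted p = 6.18e-10), a low level in both lines. Of mitochondrially encoded genes, 0 were among the IDs counted.

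The FFSS libraries of the same lines, which share no library with the static fit, give a separate reading of these differences after 3 h of flow. There, 2285 of 13111 genes tested (17.4%) were called between the lines. The control FFSS libraries were less alike than the static ones. Reads outside annotated genes made up 4.90%, 7.75% and 8.53% of reads in control FFSS replicates 1, 2 and 3. Without replicate 1, 2951 genes were called, and without replicate 3, 2099. The part of this spread in genes not called after FFSS was not tested. Of the 1084 genes called higher in static DKO cells and tested after FFSS, 819 (75.6%) were again called higher, and 40 had the opposite sign. Of the 974 called lower, 709 (72.8%) were again called lower and 9 had the opposite sign. Taken from the other side, 69.9% of the genes called higher and 63.7% of those called lower after FFSS were called in the same direction at rest. Of the 265 named genes called at rest, 262 were tested after FFSS and 216 were called in the same direction. Tmem119 was among those that were not, at a log2 fold change of −0.44. Hdac5, not called at rest, had 0.20 after FFSS. Hdac4 was not called at rest under either ID. After FFSS, ENSMUSG00000026313 was called lower at −1.47, and ENSMUSG00000073617 had −0.50 and was not called. These are further libraries of the same lines and hold the same limit on line and deletion.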

How the data were processed

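RNA was sequenced as single-end reads on a BGISEQ500 instrument. Per the study's methods and the submitters' processing notes, the authors aligned reads with STAR to the mm9 genome with Ensembl annotation and counted them per gene with HTSeq. As deposited, each library is a list of 37583 gene IDs with raw read counts, without scaling or filter. The counting is described as unstranded, so reads shared by overlapping genes, and reads aligning to several places (14.1% to 16.6% of reads), are not counted, and 31 of the 372 named genes overlap another counted gene. Symbols, positions and exon lengths come from GENCODE vM1, which names 37168 IDs (98.9%).

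Libraries were grouped by title. The 6 static libraries were fitted alone with edgeR 4.0.16 (R 4.3.3): TMM factors, filterByExpr with a minimum count of 10, robust quasi-likelihood fits without covariates, and Benjamini-Hochberg adjustment over all genes tested. Called means an adjusted p under 0.05 and more than 2-fold, the study's criteria. The study's filter, which drops genes at 0 in 2 or more samples, was an alternative because it removes genes silent in a line. CPM values use TMM-scaled totals, RPKM values divide them by exon length, and the SE is the log2 fold change over the root of the F statistic. Ratios of genes with 1 to 3 reads in a group carry an exact Clopper-Pearson interval at 95%, and genes at 0 a bound against 3 reads in a library. Both cover counting error only, since PCR copies are not independent molecules. The 5' gene ends of GENCODE vM1 placed the promoter windows. The scripts were tested on simulated data.

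The comparison, the 54 gene lists and the rule for named genes were chosen with earlier results of these data known, so no list is independent support. Named genes are Hdac4 and Hdac5, the 15 highest and 15 lowest log2 fold changes among called genes with an average log2 CPM above 3 and no overlap between groups, in each list up to 5 called members in each direction and the 3 of highest level, and the defining markers of each cell type. The text also uses Fgf23 and other listed members by their reads. A few genes that meet the rule are not reported here, though they stay in the fits and counts. Alternatives were RLE factors, library totals, no filter or the study's, DESeq2 1.42.0, limma-voom (limma 3.58.1), a fit of all 12 libraries, other fold limits, the replicate number as a block, and leaving out each library. The FFSS libraries were fitted alone in the same way.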

Additional observations from a re-analysis of the deposited data

How the results depend on the processing

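The count of genes called depended on the fold limit, as 9520 genes (4766 higher, 4754 lower) were called with no fold limit and 703 (364 higher, 339 lower) at more than 4-fold, against 2163 (1114 and 1049). The other alternatives stayed within 1.5 times of these counts, from 2138 called with library totals alone (950 higher, 1188 lower) to 2876 with no filter on low counts, which tested 22060 genes. DESeq2 called 2140 and limma-voom 2170. Leaving out each static library gave 2234 to 2305, and leaving out each FFSS library gave between 2099 and 2951 for the FFSS comparison, the highest without control FFSS replicate 1. With the replicate number as a block (replicate block) 2163 genes were called, 1114 higher and 1049 lower. Libraries with the same number deviated from their group means with an average correlation of −0.0114, against 0.00573 for other pairs. Deviations from the mean of so small a group are tied to each other, so these correlations cannot decide whether the numbers pair the libraries. The labels name no shared culture.

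Of the 372 named genes, 0 reversed and 350 kept their side of the thresholds in each alternative that tested them, the study's filter having tested 358. Those that did not include Col11a2, Ibsp (adjusted p = 0.0551 in the fit of all 12 libraries), Sparc, Ihh, Tpi1, Sik1, Id2, Fmod, Mkx, Fgf2, Csf1r, Cox4i2 and Heyl; the cause was not tested. The levels per length of Sost, Col2a1 and Col10a1 without control replicate 3 were computed after seeing the data. The fold change of 27 called genes moved by more than 1.5 times without 1 library, 14 of them most without control replicate 3, and the log2 fold change of Heyl went from −2.49 to −7.01 without DKO replicate 3. Counts of list members moved by more than 1.5 times for 22 of 108, all of them small counts. At this depth a level under 0.152 CPM in control or 0.161 CPM in DKO libraries cannot be told from 0.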

Other observations

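Several genes outside the lists, chosen here after their values were seen, differed between the static lines. Igf2, an imprinted growth factor gene, gave 1488, 1281 and 1269 reads in control and 117, 171 and 140 reads in DKO libraries, a log2 fold change of −3.16 (edgeR). The imprinted genes Mest and Dlk1 rose, with log2 fold changes of 4.89 and 4.44. The prostacyclin synthase gene Ptgis and the cyclooxygenase gene Ptgs1 had log2 fold changes of 4.35 and 1.90, and Ptgs2 had −0.63. Txnip, a thioredoxin-binding protein that limits glucose uptake, rose by 3.00 on the log2 scale.

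Levels also differed by chromosome. Over 9684 genes with an average log2 CPM above 3, the median log2 fold change was −0.0118, but it was −0.351 on chromosome 13 (324 genes, 26.2% of them above 0) and −0.262 on chromosome 16, against 0.344 on chromosome 18 (241 genes, 81.7% above 0) and 0.294 on chromosome 14. In the FFSS libraries the same medians were −0.323, −0.351, 0.387 and 0.257. The first 40 Mb of chromosome 3 had a median of 0.79 over 62 genes, 91.9% of them above 0, with 22 called higher and 2 lower, and chromosome 8 beyond 120 Mb a median of −0.54 over 80 genes, with 1 called higher and 17 lower. After FFSS these stretches had medians of 0.867 and −0.56. Egln1 and Acta1, which fell, and Itgb1, which was not called, lie in this stretch of chromosome 8. Hey1, which rose, lies in that of chromosome 3. These genes are examples, and other stretches were shifted too. Chromosome 16 from 80 to 120 Mb, where Adamts5 lies, had a median of −0.508 over 56 genes at rest. Chromosome 18 beyond 80 Mb had 0.677 over 20 genes. The part of the stretches in these differences was not tested. Genomic DNA was not analysed here, so copy number could not be examined.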
